A study of Rattus norvegicus with 3 samples.

Results

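The strongly captured probes were array probes with a bright signal in the tendon DNA of every rat measured. They were chosen by the processed signal, the spot intensity after background subtraction and dye normalization. A probe was taken when this signal was at or above the 90th percentile of all probes of a channel, called the limit here, in each of the 6 channels. Of 389347 probes, 9533 met this, and 76 were left out because their deposited PM/non-PM ratio was at least 2 on all 3 arrays (6 probes) or at most 0.5 on all 3 (70 probes). This left 9457 probes, or 2.43% of all.

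The animals were male Sprague-Dawley rats aged 8 weeks, and the tendon was cut by tenotomy in both groups. The PM group inhaled PM2.5 in 3 sessions a week over 6 weeks, whereas the non-PM group was not exposed. On each of the 3 arrays, a PM rat labeled with Cy5 was paired with a non-PM rat labeled with Cy3. No dyes were swapped, so a dye bias and the exposure cannot be told apart, and slide 1 carried arrays 1 and 2 while slide 2 carried array 3.

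In mammals, DNA methylation sits mainly at cytosines followed by guanine (CpG sites), and it is copied to the new strand when a cell divides. MBD2 is a reader protein that binds methylated CpG sites, and its fragment MBD2bt was used to pull methylated DNA from the sheared genome. Fragments with many methylated sites close together are captured best, so a bright probe reflects both methylation and the density of CpG sites, besides how well the probe itself hybridizes. The signals of different probes are therefore not levels of methylation, and the brightness order below describes signals only.

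Non-PM rats 1 and 2 gave signals unlike those of the other 4 rats. Among the strongly captured probes, Spearman's rho of the signals between these channels was 0.881. It lay between 0.141 and 0.305 between either of them and the other 4 channels, and between 0.945 and 0.951 among the PM channels and non-PM 3 (n = 9457 probes, which are not independent replicates). Over all 389347 probes the same values were 0.953, 0.415 to 0.592, and 0.841 to 0.879. The order of the strongly captured probes by signal was thus shared within each set of channels and much less between the sets. They were chosen by these signals, which limits their range, so their lower rho between the sets cannot be read apart from the choice. Over all probes the gap was smaller, though still present. The label of non-PM 3, whose signals were like those of the PM channels, was taken as given, and every value of the non-PM group or of array 3 rests on that. The number of members, their neighbors by number and the shares on left-out arrays are given with and without non-PM 1 and 2. Ratios on arrays 1 and 2 need these channels, so without them only array 3 gives a ratio.

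The limit was an intensity of 5130, 4608 and 3081 in PM 1, 2 and 3. In non-PM 1, 2 and 3 it was 3746, 3410 and 2907. Most probes reached it in no channel (313498, or 80.5%). Fewer probes reached it in exactly 3 channels (6078) or 5 channels (3313) than in 2 (23650), 4 (20346) or 6 (9533). Of those with 4 channels, 19169 reached the limit in the PM channels and non-PM 3 only, and of those with 2, 19954 in non-PM 1 and 2 only. Of the 31012 probes at or above the limit in the PM channels and non-PM 3, 30.7% were so in all 6 channels, and of the 33374 in non-PM 1 and 2, 28.6%. Without non-PM 1 and 2 in the choice, 30755 probes were chosen in place of 9457, and these held all 9457.

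The median strongly captured probe was 41.0, 33.5 and 37.3 times as bright as the median probe of the channel in PM 1, 2 and 3. In non-PM 1, 2 and 3 it was 7.61, 7.98 and 30.6 times as bright. Non-PM 3 lay near the PM channels, and non-PM 1 and 2 lay far below, so the mean was 37.3 ± 3.74 in the PM group and 15.4 ± 13.1 in the non-PM group (SD, n = 3 rats). These values were used in the choice and were not tested. By the rule, capture was strong in all 6 rats, but the margin was smaller in non-PM 1 and 2, where the median member was 1.79 and 1.88 times the limit, against 3.81 to 4.22 times in the others.

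The strongly captured probes carried 38.1%, 35.5% and 36.7% of the background-subtracted signal of all probes in PM 1, 2 and 3. In non-PM 1, 2 and 3 they carried 14.4%, 14.9% and 31.9%. Their share was thus lowest in the channels that stood apart, and non-PM 3 came next below the PM channels. Over the members, the log2 signals had an SD of 1.39, 1.36 and 1.37 in PM 1, 2 and 3, against 0.86, 0.84 and 1.22 in non-PM 1, 2 and 3. The brightness of the members was thus more alike in non-PM 1 and 2 than in the other channels. The choice cut the members off below the limit, and the median member lay nearest to it in non-PM 1 and 2, so this is a description only. The same channels had the lowest SD over all probes, at 1.78 and 1.72. Over all probes it was 2.13, 2.09 and 2.21 in PM 1, 2 and 3 and 2.07 in non-PM 3. At or above the 99th percentile of all probes were 3038, 2942 and 2947 of the members in PM 1, 2 and 3, and 1811, 1793 and 3053 in non-PM 1, 2 and 3.

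The channel in which a member came nearest to the limit was non-PM 1 for 4377 probes (46.3%) and non-PM 2 for 2405 (25.4%). It was PM 1 for 566, PM 2 for 1106, PM 3 for 727 and non-PM 3 for 276. The channels that stood apart were thus most often the lowest. The lowest channel of 1400 members was within 1.1 times of the limit, and 1702 other probes missed it by no more than that.

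Just inside the limit, CUST_RP21283315, CUST_RP21066289 and CUST_RP21069642 had intensities of 3746.86, 3747.09 and 3747.21 in non-PM 1, where the limit was 3746.25. Probe CUST_RP21283315 had 33172, 33666 and 20744 in PM 1, 2 and 3, and 4800 and 14703 in non-PM 2 and 3. Probe CUST_RP21069642 had 5826, 4703 and 4165 in the PM channels, and 3769 and 3652 in non-PM 2 and 3. So a probe at the border could be far above the limit in the PM channels or near it in all channels. Just outside, CUST_RP21050679 had 3409.97 in non-PM 2 against a limit of 3410.01, and CUST_RP21072481 had 3745.40 in non-PM 1. The latter was bright in the PM channels, with 52511, 48788 and 43476, but had 3992 in non-PM 2, or 1.17 times the limit there. CUST_RP21380072 missed by non-PM 3 alone, with 2906.01 against 2906.53, and had 7207 and 7395 in non-PM 1 and 2.

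All 9457 members were marked as well above background in all 6 channels, against 53.5% to 82.0% of all probes in single channels. The lowest member was between 18.8 and 31.3 times the 99th percentile of the 1182 negative control spots of its channel. The members were chosen for a bright signal, so both of these results follow from the limit and are no support for the members. Saturated were 1, 1 and 6 members in PM 1, 2 and 3, of 1, 1 and 9 over all probes. In the non-PM channels 0 members were saturated, while 10 other probes were so in non-PM 3. The local background beside the members was 48.0, 47.0 and 47.5 in the PM channels, against 47.5, 46.5 and 47.0 over all probes. The members made up 2.30% to 2.61% of the probes in each of 4 equal areas of the array surface, so they were spread over the glass.

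The choice was repeated with each array left out, without the limit on the ratio, and the left-out array was then read. Of 11472 probes chosen on arrays 2 and 3, 83.1% were at or above the limit in both channels of array 1, against 3.06% of all probes. Of 10473 chosen on arrays 1 and 3, 91.0% were so on array 2, against 3.25% of all. Of 10142 chosen on arrays 1 and 2, 94.0% were so on array 3, against 8.71% of all. The mean share was 89.4 ± 5.63% (SD, n = 3 arrays). The probes counted on the left-out array were the same 9533 each time, since they meet the limit in all 6 channels by the rule, so each share is that number over a larger set chosen on 4 channels and was not tested. Without non-PM 1 and 2, the shares were 96.4% in PM 1 and 96.8% in PM 2, against 10.0% of all probes, and 89.4% in both channels of array 3. The single channels differed, since 97.9%, 96.9% and 94.95% were at or above the limit in PM 1, 2 and 3, and 84.8%, 93.8% and 98.1% in non-PM 1, 2 and 3. The share in non-PM 1 was the lowest.

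With a single channel left out, the other 5 channels chose 11227 probes without non-PM 1, of which 84.9% were at or above the limit in it. The 1694 that were not had a median signal of 3.73 times the channel's median, and so were dimmer there without being dim. In the other channels, the share found again was 93.9% in non-PM 2 and 95.8% to 98.99% in PM 1, 2 and 3 and non-PM 3.

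The probe with the highest mean log2 signal over the 6 channels was CUST_RP21348422, with intensities of 1713858, 1568697 and 840958 in PM 1, 2 and 3. In non-PM 1, 2 and 3 it had 70431, 90987 and 536116. Its spots were saturated in the PM channels, so these values are lower bounds and no ratio is given. CUST_RP21348373 was 221, 201 and 191 times the limit in the PM rats, and 58.3, 41.3 and 130.2 times in the non-PM rats. CUST_RP21350598 was 223, 260.2 and 271 times the limit in the PM rats, and 16.9, 21.8 and 160.5 times in the non-PM rats. On this scale the PM channels were above every non-PM channel in both probes, and non-PM 3 was far above non-PM 1 and 2. The probes were picked for brightness, and the members' signals spread least in non-PM 1 and 2 (SD given above), so this order is a description only. After loess (an intensity-dependent correction within each array), the PM/non-PM log2 ratios of CUST_RP21348373 were -2.85, -1.90 and 0.08 on arrays 1, 2 and 3. Those of CUST_RP21350598 were -0.58, -0.48 and 0.26. With each array centred on its median instead, they were 2.73, 2.93 and 0.64, and 4.53, 4.22 and 0.84. The direction on arrays 1 and 2 thus depended on the scale. In multiples of the limit, CUST_RP21349183 (saturated in PM 3) and CUST_RP21350749 had the same order of groups. Like the probes above, they lie between numbers 348001 and 351000. In the stretches of 1000 numbers there, 8.3%, 3.9% and 7.3% of probes were members, against 2.43% of all. The shared order thus does not come from places far apart along the numbers. CUST_RP21349183 and CUST_RP21350749 were at 238, 275 and at least 273 times and at 224, 271 and 268 times the limit in the PM rats. In the non-PM rats they were at 16.4, 22.7 and 134 times and at 17.4, 22.2 and 126 times. After loess, the log2 ratios of CUST_RP21349183 were -0.45 and -0.48 on arrays 1 and 2, and none is given for array 3. Those of CUST_RP21350749 were -0.62, -0.46 and 0.61 on arrays 1, 2 and 3.

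CUST_RP21107602 had another pattern among the brightest probes. It was 167, 95.3 and 71.2 times the limit in PM 1, 2 and 3, and 87.9, 182 and 86.0 times in non-PM 1, 2 and 3. The groups overlapped in this probe, with the highest multiple of the limit in non-PM 2. In multiples of the channel's median, PM 1 was highest, at 1617 against 776 in non-PM 2. After loess, its log2 ratios were -3.90, -5.37 and -0.67 on arrays 1, 2 and 3. With median centring they were 1.73, -0.29 and -0.19.

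Over the 6 channels, the SD of a member's log2 signal relative to the limit had a median of 0.66, with quartiles of 0.36 and 1.15 and a range of 0.04 to 2.31. Within a channel, where only spot noise enters, 384 repeated spots of a control probe had an SD of log2 signal of 0.08 to 0.14. The 5 members with the smallest SD over channels are given next, so their evenness is fixed by the choice. CUST_RP21199650 was the most even member, at 1.39, 1.39 and 1.42 times the limit in PM 1, 2 and 3, and 1.37, 1.45 and 1.46 times in non-PM 1, 2 and 3. CUST_RP21336477 followed, at 2.75, 2.58 and 2.58 times in the PM rats, and 2.56, 2.55 and 2.65 times in the non-PM rats. The groups overlapped in both probes. Even multiples of the limit did not mean a ratio of 0, since the log2 ratios of CUST_RP21336477 were -1.48, -1.44 and -0.15 after loess, and turned to 0.91, 0.67 and 0.05 with median centring. The next, CUST_RP21379789, CUST_RP21237439 and CUST_RP21035237, had an SD of 0.05, 0.06 and 0.06. All 5 were single probes with no member beside them by number.

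The probes carry a running number and no gene or position in the files, so members were placed by number. The files do not tell whether neighboring numbers are also genomic neighbors. Of the 9457 members, 3639 (38.5%) had a member at the number before or after, against 3.75% of the other 379890 probes. This share was 37.9% without the stretch of numbers that held the most members. When non-PM 1 and 2 were not used in the choice, it was 67.4% of the 30755 members, against 8.41% of the other probes, a set too large to compare with the 38.5%.

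At a distance of 1 number, 22.5% of the neighbors of a member were members. The share was 11.0% at a distance of 2, 7.33% at 3, 5.88% at 5, 4.66% at 10, 3.80% at 50 and 2.90% at 1000, where all probes gave 2.43%. Sharing of strong capture thus fell off within a few numbers in this choice. Without non-PM 1 and 2 in the choice, the share was 47.7% at a distance of 1, 34.5% at 2, 27.5% at 3, 20.2% at 5, 12.9% at 10, 10.3% at 50 and 8.78% at 1000, where all probes gave 7.90%, a slower fall. The signal beside the 9457 members also fell, since the direct neighbors had a median of 8.49, 7.42 and 7.61 times the channel's median in the PM rats, and 2.53, 2.58 and 6.60 times in non-PM 1, 2 and 3. At a distance of 10 these values were 1.34, 1.31, 1.33, 1.17, 1.17 and 1.30. Spots of consecutive members lay a median of 367 spots apart on the glass, against 357.5 for all consecutive probes, and 1 of the 2124 pairs (0.047%) lay within 10 spots, against 0.072% of all.

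The members formed 7333 runs of consecutive numbers, of which 5818 were single probes and 1515 had at least 2. Runs of at least 3 numbered 413 and held 1435 members, and runs of at least 5 numbered 39 and held 240. The 3 longest had 15, 13 and 11 members. Without non-PM 1 and 2 in the choice there were 16092 runs, of which 10017 were single probes, and the longest had 20 members.

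The run of 15 went from CUST_RP21348366 to CUST_RP21348380. Its median member was 511, 574 and 751 times the channel's median in PM 1, 2 and 3, and 100, 80.3 and 404 times in non-PM 1, 2 and 3. Its first probe was 16.3, 43.5 and 42.4 times the limit in the PM rats, and 9.30, 11.1 and 27.7 times in the non-PM rats. Its last was 19.6, 52.9 and 79.7 times in the PM rats, and 10.9, 6.39 and 30.1 times in the non-PM rats. Its brightest by the mean log2 signal over the 6 channels was CUST_RP21348373, given above, though not in every single channel. PM 1 was lower than PM 2 and 3 at both ends, and lay below non-PM 3 there, so the groups overlapped at the ends of the run.

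The run of 13 went from CUST_RP21348420 to CUST_RP21348432 and so began 40 numbers after the end of the run of 15. Its first probe was 224, 249 and 253 times the limit in PM 1, 2 and 3, and 15.5, 20.6 and 125 times in non-PM 1, 2 and 3. Its last was 6.30, 7.51 and 12.2 times in the PM rats, and 1.04, 1.36 and 7.66 times in the non-PM rats, and its brightest was CUST_RP21348422. In multiples of the limit, every PM channel was above every non-PM channel in the first probe. In the last, non-PM 3 was above PM 1 and 2 on that scale. In multiples of the channel's median, the last probe had 61.2, 66.1 and 115 in the PM rats and 60.4 in non-PM 3, so this order turned. After loess, the log2 ratios of the first probe were -0.41, -0.42 and 0.54 on arrays 1, 2 and 3. With median centring they were 4.66, 4.25 and 1.11. The run of 11, from CUST_RP21350217 to CUST_RP21350227, had medians of 302, 235 and 205 times the channel's median in the PM rats, and 11.3, 8.73 and 112 times in the non-PM rats.

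Along the numbers, blocks of 1000 held a median of 24 members, with quartiles of 18 and 30.0. These blocks and the stretches named next were chosen after the values had been seen. Numbers 362001 to 372000 held 0 members among 10000 probes, and numbers 378001 to 381000 held 406 among 3000 (13.5%). The fullest block, 379001 to 380000, held 203 (20.3%). In the empty stretch the median probe was 0.336, 0.374 and 0.378 times the channel's median in the PM rats, and 0.177, 0.198 and 0.342 times in the non-PM rats. In the full stretch it was 2.35, 2.16 and 2.25 times in the PM rats and 2.93, 2.92 and 2.26 times in the non-PM rats. Within the full stretch the channels did not all go together, since the block 380001 to 381000, with 126 members, had medians of 1.27, 1.27 and 1.31 times the channel's median in the PM rats, and 0.716, 0.750 and 1.17 times in the non-PM rats. The numbers after it, 381001 to 389347, held 22 members (0.264%), with medians of 1.06, 1.09 and 1.19 times in the PM rats and 0.697, 0.719 and 1.02 times in the non-PM rats.

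The direction of the PM/non-PM difference of the members depended on the normalization. After loess normalization (an intensity-dependent correction within each array), the median log2 ratio of the members was -0.35, -0.44 and -0.08 on arrays 1, 2 and 3. With each array centred on its median and no loess, it turned to 2.01, 1.63 and 0.15. The deposited ratios, which had been LOWESS-normalized, gave -0.10, -0.19 and -0.07. The members were bright by choice and the loess corrects by brightness, so no direction of the members as a group is settled. The median over all probes was between -0.07 and 0.03 on each array on these scales. On array 3 the members' ratio was small on either scale, with an SD of 0.39 over members after loess, against 1.26 and 1.17 on arrays 1 and 2.

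In limma on the loess ratios, 0 of the 9457 members passed an adjusted p of 0.05, against 0% of all probes. At an unadjusted p of 0.05, 40 members had a higher PM signal (hypermethylated), against 12.9% of all probes, and 1523 had a lower PM signal (hypomethylated), against 15.6% of all. With median centring in place of loess, 4404 members were higher, against 14.2% of all probes, and 23 were lower, against 17.8% of all, again with 0 past the adjusted p. As the rule left out probes by this contrast, nothing is read from these counts. With 3 ratios, the smallest p of an exact two-sided sign-flip test is 0.25, so no member was tested that way. The methods' t-test, run here on the same loess ratios, called 263 members higher (2.78%), against 2.76% of all probes, and 443 lower (4.68%), against 8.13% of all, with 0 after adjustment. With the slide as a block, in a fit with 1 residual degree of freedom, 2194 members (23.2%) passed the adjusted p when the arrays had equal weight, against 36.3% of all probes. When the slides had equal weight, 318 did (3.36%), against 9.27% of all. Without array 3, 3075 members passed it (32.5%), against 46.7% of all probes. Without array 1 and without array 2 it was 2 and 1 members, against 0.639% and 0.429% of all. Again nothing is read from these counts.

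The members had to be bright in both channels of every array, which limits their ratios, so the shares of all probes below stand for reference only and nothing is read from the difference. After loess, 4849 members (51.3%) were within 2-fold on all 3 arrays, against 21.8% of all probes. Another 2567 (27.1%) were at least 2-fold lower in the PM rat on arrays 1 and 2 and within 2-fold on array 3, against 13.0% of all probes. In the same way 486 (5.14%) were at least 2-fold higher, against 21.1% of all. With median centring, these counts were 2272 (24.0%), 68 (0.719%) and 5672 (60.0%), against 20.4%, 13.0% and 21.1% of all probes, so the split of the members turned. On array 3 after loess, 56 members (0.592%) were at least 2-fold higher and 126 (1.33%) lower, against 9.82% and 12.9% of all probes. With median centring these were 181 (1.91%) and 51 (0.539%), against 7.83% and 16.65% of all. Between arrays 1 and 2, r of the loess ratios over the members was 0.918, whereas it was 0.263 between arrays 1 and 3 and 0.197 between arrays 2 and 3. Over all probes these were 0.830, 0.218 and 0.221, in the same order.

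The members were split into 4 equal groups by their mean log2 signal. The same signals form the ratio, and they spread less in non-PM 1 and 2 than in the other channels (SD given above), so a higher ratio in the brighter groups on arrays 1 and 2 follows from the split and is a description only. In the dimmest group (2365 members), the median loess ratio was -0.82, -0.88 and -0.12 on arrays 1, 2 and 3. In the brightest group (2364 members) it was 0.28, 0.12 and 0.00. The medians with median centring were above 0 in both groups, at 0.95, 0.67 and 0.04 in the former and 3.52, 3.07 and 0.33 in the latter. Between these groups, the median signal rose from 16.0 to 143 times the channel's median in PM 1, from 13.55 to 117 times in PM 2 and from 15.2 to 127.5 times in PM 3. It rose from 13.5 to 92.0 times in non-PM 3, near the PM channels, and from 6.10 to 10.9 and 6.30 to 12.02 times in non-PM 1 and 2. The share of members with a member beside them by number rose from 23.4% to 54.0%.

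Neighboring members had like ratios. Over the 2124 pairs of members with consecutive numbers, r of the loess ratios was 0.738 on array 1. It was 0.719 on array 2 (2122 pairs) and 0.652 on array 3. Pairs in which neither probe was a member had r of 0.616, 0.612 and 0.320. The median absolute difference within a pair was 0.45, 0.46 and 0.18 for members, and 0.95, 0.94 and 0.62 for the other pairs, in which more probes were dim. With median centring, r over the pairs of members was 0.801, 0.801 and 0.688, so neighbors were alike on that scale too.

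Among members with the same sign of the loess ratio on all 3 arrays, the highest mean log2 ratio was that of CUST_RP21284235. It was 24.1, 25.9 and 30.5 times the limit in PM 1, 2 and 3, and 1.09, 1.23 and 19.04 times in non-PM 1, 2 and 3. Its log2 ratios were 2.25, 2.26 and 0.39, a mean of 1.63 ± 1.08 (SD, n = 3 arrays). CUST_RP21295374 followed with 46.8, 23.5 and 42.8 times the limit in the PM rats and 1.97, 1.42 and 18.99 times in the non-PM rats. Its mean log2 ratio was 1.52 ± 0.57, and it was positive on every array. In both probes each PM channel was above each non-PM channel, but non-PM 1 and 2 were far below non-PM 3, so the ratio of arrays 1 and 2 rests on the channels that stood apart. Both were picked from the 9457 members for a high ratio, so the order of the groups and the means are a description only. CUST_RP21327673, CUST_RP21349104 and CUST_RP21090015 had means of 1.45 ± 0.54, 1.41 ± 0.73 and 1.39 ± 1.04. With median centring, these 5 probes were also positive on all 3 arrays, with means of 3.22 to 3.78. They were picked by ratios of the same signals, and 60.2% of all members were above 0 on all 3 arrays on that scale. Nothing is therefore read from this sign.

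The lowest mean log2 ratio was that of CUST_RP21079954, which was 9.47, 14.6 and 10.4 times the limit in PM 1, 2 and 3, and 87.3, 76.4 and 14.3 times in non-PM 1, 2 and 3. Its log2 ratios were -6.89, -5.87 and -0.69, a mean of -4.48 ± 3.32 (SD, n = 3 arrays). The probe numbered just before it, CUST_RP21079953, was also among the 5 lowest, with a mean of -3.78 ± 3.14. It was 15.9, 23.9 and 19.4 times the limit in the PM rats, and 71.2, 70.5 and 18.3 times in the non-PM rats. PM 2 was just above non-PM 3 in the former, and PM 2 and 3 were above it in the latter, so the groups overlapped in both, and non-PM 1 and 2 were far above the rest. CUST_RP21035845, CUST_RP21277382 and CUST_RP21081826 had means of -4.01 ± 3.40, -3.98 ± 2.61 and -3.83 ± 2.95. With median centring, the means of these 5 were -0.70 to -1.73, and the ratio on array 3 turned positive in CUST_RP21035845 (0.15) and CUST_RP21079953 (0.17). The sign on array 3 thus depended on the scale in these probes. The 5 lowest were likewise picked for their ratios, so their values are a description only.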

How the data were processed

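The authors deposited spot intensity values of each array from the scanner software (Agilent Feature Extraction 11.5.1.1, per the submitters' processing notes), in raw, background-subtracted and processed form. The software's log10 ratio was deposited too. A table deposited by the authors gives linear PM/non-PM ratio values after LOWESS, whose direction was checked against each array's log ratio (column medians 0.959, 1.02 and 1.02). Flags for control, outlier, saturated and well-above-background spots, which have no unit, were taken as the authors deposited them with the other columns.

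Control spots were left out, outlier spots set to missing (2 among the members), and log2 ratios of processed signals normalized by loess (span 0.3) and fitted with limma 3.58.1 (R 4.3.3), with p adjusted by Benjamini-Hochberg across the 389347 probes. The fit and the search for runs were tested on simulated data. With 3 arrays, precision is limited.

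Probes were named by rule: the 6 brightest (1 per run), the 3 nearest the limit on either side, the ends and brightest of the 2 longest runs, the 5 highest and 5 lowest mean ratios of constant sign, and the 5 most even. The members and lists were chosen with earlier results of these data known. The slide block was first coded with equal weight for the arrays. A coding with equal weight for the slides was added after those counts had been seen, because an earlier result of these data had used it. Rules on genes and CpG sites were not run, since probe sequences and gene names are not used here.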

Additional observations from a re-analysis of the deposited data

Results flagged for a closer look

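Among the control spots, which entered no comparison, 561 of 2908 control probes of the LACC:SRN set (19.3%) were at or above the limit in all 6 channels. Of the 389347 non-control probes 2.45% were so, and of the 1182 negative control spots 0 were. The signal of the LACC:SRN control probes lies in data outside the main measurement. What these control probes match is not known from the files, and its relation to the strongly captured probes was not tested.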

How the results depend on the processing

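Beyond a stricter or looser limit and fewer arrays or channels, the cause was not tested. The number of strongly captured probes was 9457, and 24739 at the 80th and 3913 at the 95th percentile. It was 30755 without non-PM 1 and 2, a choice added after the data were seen. With raw signals (9510, of which 9189 shared), with the ratio limit dropped (9533) or with 1 array left out (6543 to 11375) it stayed within 1.5 times. Leaving out an array changed 2 choices at once, since the ratio limit was then applied to 2 arrays only. Without array 3, brightness alone chose 10142 probes, and the 6543 left by the ratio limit held 6223 of the 9457. The share of members beside another by number was 38.5%, and 47.3%, 33.3% and 67.4% under the same 3 choices, and 34.3% to 40.2% with 1 array left out. The share found again on a left-out array was 89.3% to 89.4% under the 3 alternatives first set, and 94.2% without non-PM 1 and 2.

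The median log2 ratio of the members was -0.29. It reversed to 1.24 with median centring and to 1.05 with the scanner's own log ratio, and was -0.59 under normexp, -0.13 with the deposited LOWESS table and -0.40 to -0.21 with 1 array left out. In the counts that follow, the share of all probes in the same fit stands in brackets. The members with a higher PM signal at the unadjusted p numbered 40 (12.9%). They were 4404 with median centring (14.2%), 166 under normexp (8.53%), 3449 with the deposited log ratio (9.67%), 90 among probes well above background (19.5%), 575 with the slide as a block (25.5%), 216 with the slides weighted equally (19.4%, added), 263 by the methods' t-test (2.76%), 86 in the fit on 6 channels (12.5%), 166 with the deposited LOWESS table (14.2%), and 0 to 891 with 1 array left out (2.48% to 28.4%). Those with a lower PM signal numbered 1523 (15.6%), and 23 with median centring (17.8%), 4084 under normexp (13.4%), 38 with the deposited log ratio (18.9%), 2909 with the slide as a block (25.3%), 443 by the methods' t-test (8.13%), and 216 to 3230 with 1 array left out (6.93% to 28.5%). Past the adjusted p in limma were 0 (0%), and 2194 with the slide as a block (36.3%), 318 with the slides weighted equally (9.27%), and 1 to 3075 with 1 array left out (0.429% to 46.7%). It was 0 under the other alternatives run, the methods' t-test included. Of the fits with 1 array left out, the one without array 3 gave the highest of these counts. On array 3 alone there is no test. All members were well above background, so dim signals limit none of their values, while saturation makes the signal of 1, 1 and 6 members in PM 1, 2 and 3 a bound.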
